A study of Capra hircus with 20 samples.

Results

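The miRNAs described here are those best known from liver and gut, miR-122, miR-192, miR-194 and miR-215, measured in goat hypothalamus. They were taken by name, all arms included, from a table of 683 miRNAs, and 5 entries met that rule: chi-miR-122, chi-miR-192-5p, chi-miR-192-3p, chi-miR-194 and chi-miR-215-5p. The table holds small RNA sequencing of hypothalamus from Jining grey goats at 4 ages after birth, days 1, 60, 120 and 180, with 5 biological replicates at each age. Per the design text of the series, all goats were kept alike and fed freely. The labels give no treatment, no genotype and no batch, and by the labels the groups differ only in age. A batch that went with age could not be told apart from age here. The study followed hypothalamic miRNAs over sexual development.

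A miRNA is a short RNA that guides Argonaute proteins to messenger RNAs that match its seed, the bases near its 5′ end, and lowers their output. miR-122 is the dominant miRNA of hepatocytes, where it acts on cholesterol and lipid genes. miR-192 and miR-194 are produced together in liver, intestinal and kidney epithelium under the control of hepatocyte nuclear factors. miR-215 shares the seed of miR-192 and differs from it at few bases, so reads can be split between them with some uncertainty. None of the 4 is known as an abundant miRNA of neurons. In the RefSeq gene table of goat assembly ARS1.2, MIR194 and MIR215 were immediate neighbours, flanked by RAB3GAP2 and IARS2. MIR192, beside ATG2A, and MIR122 lay on other chromosomes. That table holds 1 entry for MIR194.

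Levels are given in RPM: each library's miRNA reads were brought to the same total by the authors. Whole reads recovered from these values gave 4018002 to 8324928 miRNA reads per library, and 3 reads corresponded to 0.360 to 0.747 RPM. The neural markers analysed were present in every library, with miR-219 as low as 1.82 RPM in 1 of them. Their sum, led by miR-9-5p, lay between 89788 and 331554 RPM and says little of the other markers. miR-138, of the same list, was not analysed here. One library, replicate 2 of day 1, had the lowest depth and the lowest median Spearman correlation with the others, 0.891. In bulk tissue, a change in the number of cells of a type and a change in RNA per cell cannot be told apart. The limma p-values given below set a difference between ages against the spread among the 5 samples of an age, pooled over all ages. Libraries of ages outside a pair therefore also bear on the p-value of that pair. The exact permutation tests use only the libraries of the ages compared.

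miR-122, the hepatocyte miRNA, was low on day 1 and higher in nearly every older library. On day 1 replicates 1 to 5 held 91.6, 24.1, 17.5, 17.9 and 2.66 RPM. On day 60 they held 139, 138, 233, 2540 and 124 RPM. Every day-60 library lay above every day-1 library, and replicate 4 of day 60 stood far above the other 4 of its age. On day 120 the values were 115, 112, 121, 120 and 102 RPM, a narrow band that also lay above all of day 1. On day 180 they were 142, 131, 135 and 123 RPM in replicates 1 to 4, and 10.9 RPM in replicate 5, which fell inside the day-1 range. In all, 28554 reads of miR-122 were recovered from the 20 libraries, and 55.6% of them came from replicate 4 of day 60.

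**Figure D1:**
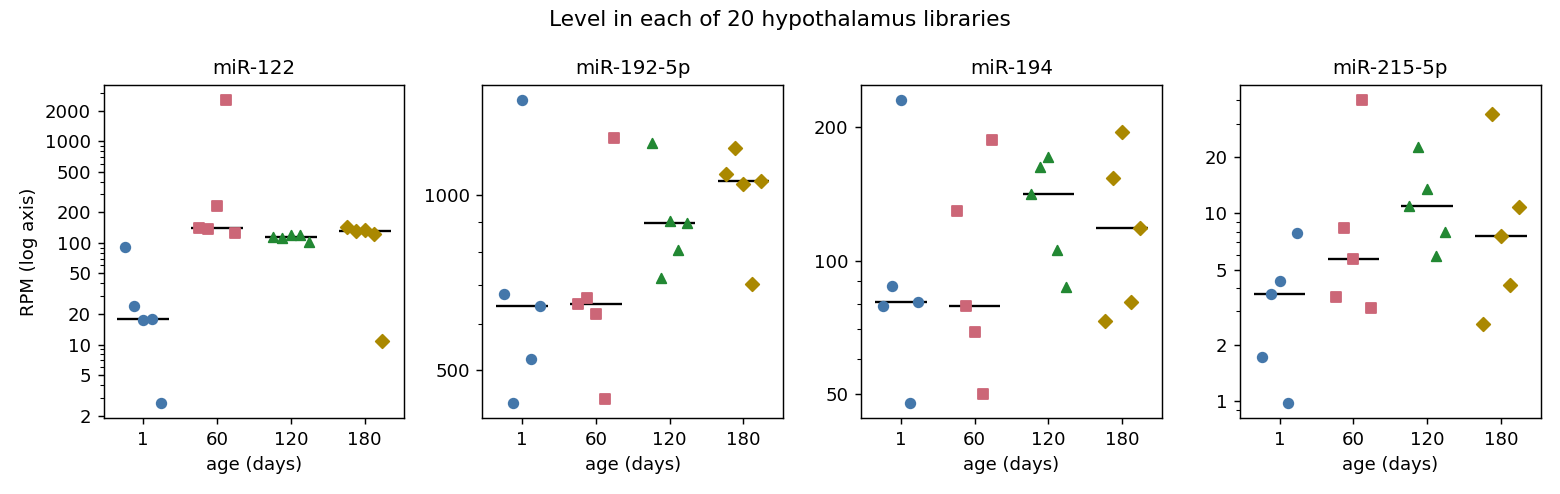
RPM (log axis, each panel with its own range) of miR-122, miR-192-5p, miR-194 and miR-215-5p against age in days; each point is 1 library, drawn in replicate order within an age, and the black line is the median of 5 libraries. miR-122 lies at 2.66 to 91.6 RPM on day 1 and at 102 to 121 RPM on day 120, with replicate 4 of day 60 at 2540 RPM and replicate 5 of day 180 at 10.9 RPM.

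Differences between ages were tested with limma on log2(RPM + 1), with p-values adjusted by Benjamini-Hochberg over the 414 miRNAs that reached 1 RPM in at least 5 libraries. All members other than miR-192-3p passed that filter. miR-122 rose between day 1 and day 60, with a median of 139 RPM on day 60 and 17.9 RPM on day 1. The log2 fold change was 3.78 (SE 0.81, adjusted p = 0.011), the highest of the 414 miRNAs. It was the 1 member of 4 called in this comparison, in which limma called 3.86% of all miRNAs, 0.725% higher and 3.14% lower. With median-of-ratios scaling 12 of 40 calls were upward, against 3 of 16 in the test reported here. Without replicate 4 of day 60 the log2 fold change was 2.97 and the adjusted p 0.056, within a range from 0.00302 to 0.056 over the 20 fits that left out 1 library. On the level of miR-122 alone, an exact two-sided permutation test of day 60 against day 1 gave p = 0.00794, the smallest that 5 against 5 allows. That test was run 24 times, for 4 members and 6 pairs of ages, and its p-values are not adjusted. Any pair of ages without overlap gives this smallest p. How many of all miRNAs did not overlap between ages was not counted.

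Day 120 against day 1 gave miR-122 a log2 fold change of 2.54 (SE 0.81), the second highest of all miRNAs, which did not pass (limma, adjusted p = 0.0709). The groups did not overlap, with 5 of 5 day-120 libraries above the highest day-1 library, and the exact permutation p of 0.00794 restates that separation. The share of all miRNAs separated in this way was not counted. limma called 3.38% of miRNAs in this comparison, 1.45% higher and 1.93% lower. With edgeR 11 of 43 calls were upward, against 6 of 14 by limma. The call was made without replicate 1 of day 1 (log2 fold change 3.10, adjusted p = 0.0355), without replicate 4 of day 60 (2.54, 0.0321) or without replicate 5 of day 180 (2.54, 0.0475). Over all 20 fits with a library left out the adjusted p ran from 0.0321 to 0.143. Day 180 against day 1 gave 2.06 (SE 0.81, adjusted p = 0.147), with 4 of 5 day-180 libraries above the highest day-1 library. Without replicate 5 of day 180 the value was 2.76 (adjusted p = 0.0636), and without replicate 5 of day 1 it was 1.46 (adjusted p = 0.239). In that comparison limma called 0 of the 4 tested members and 3.38% of all miRNAs (0.725% of all miRNAs higher and 2.66% lower). DESeq2 on the recovered reads called miR-122 there (log2 fold change 2.19, adjusted p = 0.0403).

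Among the older ages miR-122 did not pass in any pair by limma. Day 120 against day 60 gave a log2 fold change of -1.24 (95% interval -2.90 to 0.42). All 5 day-120 libraries lay below the lowest day-60 library, but narrowly, with the highest of day 120 at 121 RPM and the lowest of day 60 at 124 RPM. The exact permutation p of 0.00794 restates that separation, and how many other miRNAs were separated in this pair was not counted. The medians were 115 RPM on day 120 and 139 RPM on day 60. Without replicate 4 of day 60 the log2 fold change was -0.43. Day 180 against day 60 gave -1.71 (-3.37 to -0.06, adjusted p = 0.86), and -0.91 without the same library. For day 180 against day 120 the value was -0.48 (-2.13 to 1.18), turning to 0.22 without replicate 5 of day 180.

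Over the 4 ages together, miR-122 passed limma's F test with an adjusted p of 0.0439, a test in which 1.93% of miRNAs were called. It ranked 8 of 414 by p and was the last to pass. The call was kept in 6 of 20 fits that left out 1 library. Among the day-1 libraries, leaving out number 2, 3, 4 or 5 gave adjusted p-values of 0.105, 0.089, 0.0516 and 0.0645. Among those of day 60, number 3 gave 0.0653 and number 4 gave 0.0643. Each of the 5 libraries of day 120, when omitted, took the adjusted p to between 0.0568 and 0.0655. Numbers 2, 3 and 4 of day 180 gave 0.0538, 0.0526 and 0.051.

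The spread of miR-122 within an age also varied widely. Its coefficient of variation (CV, the SD over the mean of 5 libraries) was 113% at day 1 and 168% at day 60. It was 6.79% at day 120 and 50.7% at day 180. On day 120 this was the lowest CV of the 282 tested miRNAs with a mean of 10 RPM or more at that age, whose median CV was 38.3%. Counting error alone would have given a CV of 3.45% at the 752 to 941 reads behind these values. On day 60 it ranked 291 of 293 from the lowest, against a median of 49.6%. The CVs carry no test. The SD of the log2 level of miR-122 ran from 0.10 on day 120 to 1.84 on day 60, while limma pooled the spread over all ages. Whether reads passed between libraries during sequencing, which could bear on a level this even and on the difference from day 1, was not tested, since run information and reads were not used here.

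**Figure D2:**
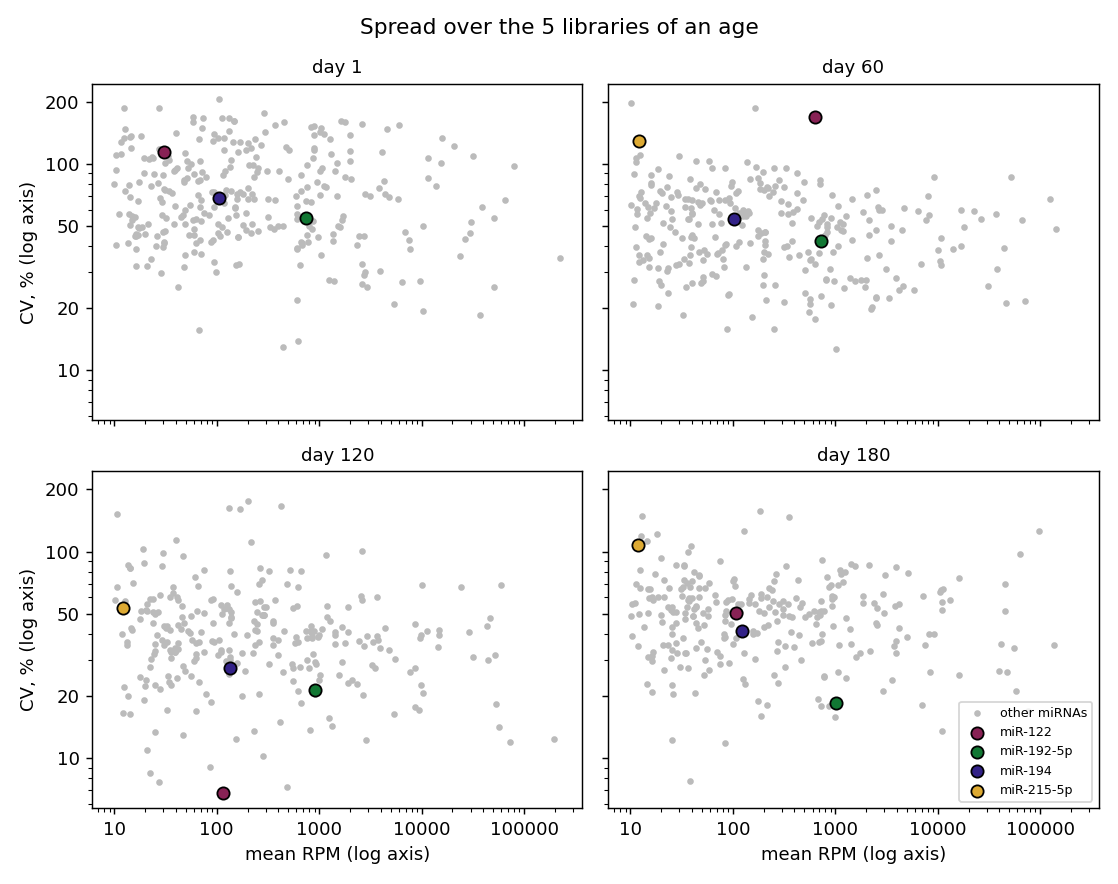
CV over the 5 libraries of an age (log axis, %) against the mean RPM of that age (log axis) for tested miRNAs with a mean of 10 RPM or more, 1 panel per age; grey points are other miRNAs and large points are miR-122, miR-192-5p, miR-194 and miR-215-5p. On day 120 miR-122 is the lowest point at 6.79%, while on day 60 it lies near the top at 168%; miR-215-5p is not drawn on day 1, where its mean was under 10 RPM.

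miR-192-5p, the guide strand of the epithelial miR-192, was the most abundant member, at 852 ± 293 RPM (SD, n = 20) and rank 77 of the table by mean. On day 1 replicates 1 to 5 held 676, 438, 1461, 522 and 645 RPM, and on day 60 they held 650, 666, 624, 446 and 1257 RPM. On day 120 the values were 1232, 721, 902, 805 and 896 RPM, and on day 180 they were 1089, 1209, 1045, 704 and 1058 RPM. The ages overlapped in all 6 pairs. Medians were 645, 650, 896 and 1058 RPM from day 1 to day 180, and means 749, 729, 911 and 1021 RPM.

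No pair of ages passed the test for miR-192-5p. Day 180 against day 1 gave a log2 fold change of 0.56 (95% interval -0.22 to 1.34, limma adjusted p = 0.394), with 4 of 5 day-180 libraries above the day-1 mean. Day 60 against day 1 gave 0.01 (-0.77 to 0.79, adjusted p = 0.99), a value whose sign turned with the test or the library left out. The other 4 pairs lay between 0.16 and 0.55, and the F test gave an adjusted p of 0.676. The CV was 54.7% on day 1 and 18.5% on day 180, where it ranked 12 of 280 miRNAs from the lowest.

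miR-192-3p, the passenger strand of the same hairpin, was near the limit of detection. It had at most 7 reads in any library, 25 reads over all 20, and no read in 8 of them. It made up 0.0209% of the reads of both miR-192 arms, so that nearly all reads came from the 5p arm. Its 7 reads (0.982 RPM) stood in replicate 3 of day 1, the library in which miR-192-5p was also highest. Against the floor of 3 reads, no comparison between ages was made for it.

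miR-194, the partner of miR-192 in epithelial cells, lay at 117 ± 52.3 RPM (SD, n = 20). Replicates 1 to 5 held 79.1, 87.6, 230, 47.8 and 80.8 RPM on day 1 and 130, 79.3, 69.1, 50.1 and 187 RPM on day 60. The values were 142, 163, 172, 106 and 87.4 RPM on day 120 and 73.3, 154, 195, 80.6 and 119 RPM on day 180. Every pair of ages overlapped. The largest log2 fold change was that of day 120 against day 1, 0.51 (95% interval -0.45 to 1.47, limma adjusted p = 0.592), and day 60 against day 1 gave 0.02 (-0.94 to 0.98, adjusted p = 0.99). The F test gave an adjusted p of 0.869.

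miR-192-5p and miR-194 moved together from library to library. Over the 20 libraries their log2 levels had a Pearson r of 0.741 (permutation p = 0.00034, 0.00189 after adjustment over 6 relations) and a Spearman rho of 0.686 (permutation p = 0.00131, adjusted 0.00402). With the mean of each age removed r was 0.726 (permutation p = 0.00467 within ages, adjusted 0.014), and it was 0.726 without replicates 2 and 3 of day 1, the libraries farthest from the median of miR-192-5p. The ratio of miR-192-5p to miR-194 stayed between 4.43 and 14.9, with medians of 7.99, 8.41, 7.63 and 8.73 from day 1 to day 180. Among 356 known miRNAs compared, miR-194 ranked 12 by rho with miR-192-5p, so 11 others followed miR-192-5p more closely. Positive correlation with miR-194 was common: a rho of 0.260, that of miR-215-5p, ranked only 175 of 356. The 5 miRNAs most like miR-194 had a rho of 0.863 to 0.925 with it. The permutation p-values compare with no correlation, so they do not set this pair apart from other miRNAs.

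**Figure D3:**
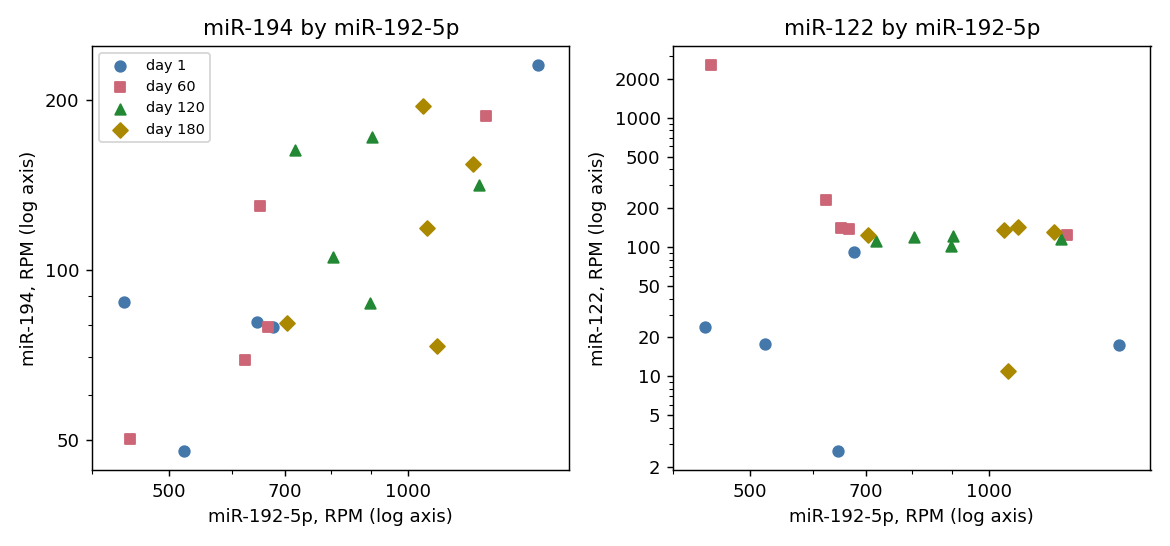
miR-194 (left) and miR-122 (right) against miR-192-5p, all in RPM on log axes; each point is 1 of 20 libraries, with colour and shape for age. miR-194 increases along miR-192-5p (Pearson r = 0.741), while miR-122 shows a band near 102 to 142 RPM with libraries above and below it, the highest, 2540 RPM, standing where miR-192-5p is 446 RPM.

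miR-215-5p, which has the seed of miR-192, was the least abundant of the tested members. Replicates 1 to 5 held 1.72, 3.73, 4.35, 0.975 and 7.85 RPM on day 1 and 3.59, 8.31, 5.74, 40.2 and 3.11 RPM on day 60. On day 120 the values were 11, 22.7, 13.5, 5.92 and 7.98 RPM, and on day 180 they were 2.58, 33.7, 7.61, 4.13 and 10.8 RPM. Of the day-120 libraries 4 of 5 lay above the highest day-1 library, and the ages overlapped in every pair. Behind these values stood 8 to 251 reads per library.

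Day 120 against day 1 gave miR-215-5p a log2 fold change of 1.55 (95% interval 0.26 to 2.83), which did not pass (limma adjusted p = 0.157, exact permutation p = 0.0159 unadjusted). Day 60 against day 1 gave 1.07 (-0.22 to 2.35, adjusted p = 0.354), and 0.51 without replicate 4 of day 60. Day 180 against day 1 gave 1.15 (-0.13 to 2.43, adjusted p = 0.31), and 0.67 without replicate 2 of day 180. The pairs among the older ages lay between -0.40 and 0.48, and the F test gave an adjusted p of 0.411. MIR215 neighbours MIR194 in the gene table used here, but which locus the reads of miR-194 came from was not tested. The levels of miR-215-5p and miR-194 had an r of 0.206 over 20 libraries (permutation p = 0.383, adjusted 0.46) and a Spearman rho of 0.260 (permutation p = 0.267, adjusted 0.4). That r was 0.086 with the means of the ages removed (permutation p = 0.752) and 0.293 without the 2 libraries farthest from the median of miR-194. The ratio of miR-194 to miR-215-5p ranged from 1.25 to 60.1. miR-215-5p and miR-192-5p had an r of 0.075 (rho 0.132, permutation p = 0.756 and 0.578, adjusted 0.756 and 0.578), with -0.120 after removal of the means of the ages and 0.073 without the 2 libraries farthest from the median of miR-192-5p.

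**Figure D4:**
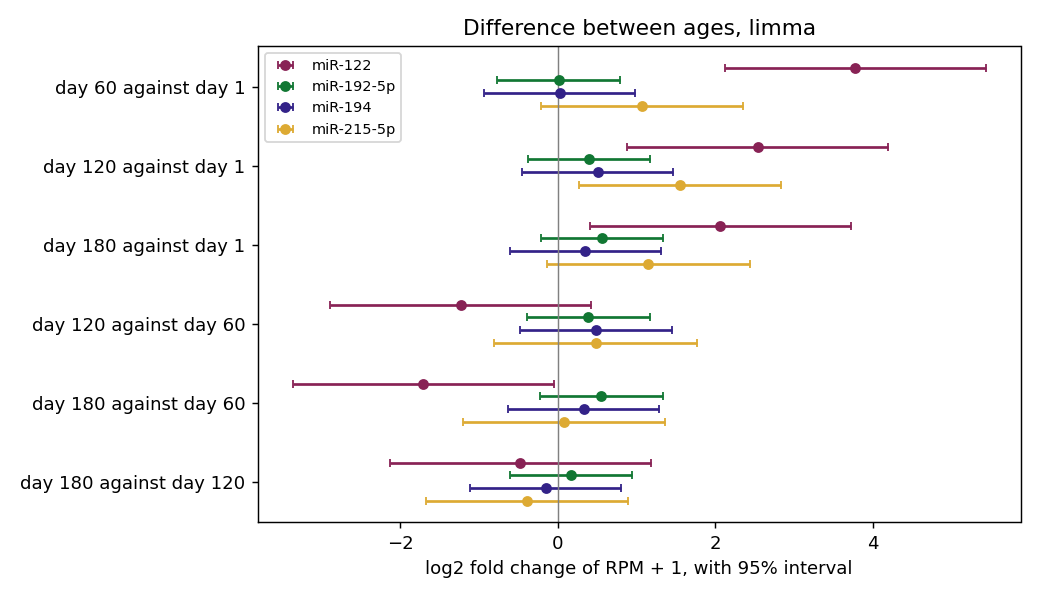
Log2 fold change of RPM + 1 from limma (points) with its 95% interval (bars) for miR-122, miR-192-5p, miR-194 and miR-215-5p in the 6 pairs of ages, the later age over the earlier; 0 means no difference. miR-122 in day 60 against day 1 lies farthest from 0, at 3.78, and the intervals of miR-192-5p and miR-194 include 0 in all 6 pairs.

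Day 120 against day 60, day 180 against day 60 and day 180 against day 120 had 0 calls among all 414 miRNAs by limma, 0 by edgeR and 0 by DESeq2, so percent called was 0. At an unadjusted p under 0.05 limma had 13, 20 and 3 miRNAs in these pairs. The comparisons with day 1 share its 5 libraries, and a day-1 value that is low counts in each of them. The median log2 fold change over all miRNAs was -0.04 for day 60, -0.12 for day 120 and -0.25 for day 180 against day 1 (0.07, -0.07 and -0.03 with median-of-ratios scaling). All 4 tested members lay above 0 in these 3 comparisons, as did 193, 181 and 155 of all 414 miRNAs. For miR-192-5p and miR-194 the values on day 60 were near 0 and turned negative with edgeR and DESeq2.

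The level of miR-122 relative to miR-192-5p was compared between ages. For day 60 against day 1 miR-192-5p had a log2 fold change of 0.01, so that ratio restates the change of miR-122. The log2 ratio of miR-122 to miR-192-5p averaged -1.34 on day 60 and -5.11 on day 1, a difference of 3.77 (exact two-sided permutation p = 0.0159). Without replicate 4 of day 60 the difference was 2.80 (-2.31 on day 60 and -5.11 on day 1, exact p = 0.0317), and without replicate 5 of day 1 it was 3.18 (exact p = 0.0317). For day 120 against day 1 the difference was 2.14 (exact p = 0.0317). It ran from 1.56 to 2.70 with a library left out, and in 6 of 10 such tests the exact p was 0.0635. For day 180 against day 1 it was 1.5 (exact p = 0.23), with a range from 0.91 to 2.22. These ratio tests were added after the values were seen and cover 18 ratios and pairs of ages, without adjustment. For miR-194 over miR-192-5p the difference was 0.01 for day 60 against day 1 (exact p = 0.984). miR-192-5p exceeded miR-122 in 19 of 20 libraries. Its ratio to miR-122 ran from 7.38 to 243 at day 1 and from 0.176 to 10.1 at day 60. It ran from 6.45 to 10.7 at day 120 and from 5.70 to 96.8 at day 180.

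Single libraries differed in which members were high. Replicate 4 of day 60 had the highest miR-122 and the highest miR-215-5p of all 20 libraries, 2540 and 40.2 RPM. In the same library miR-192-5p and miR-194 both ranked 19 of 20, at 446 and 50.1 RPM. Replicate 3 of day 1 was the highest of all 20 in miR-192-5p, miR-192-3p and miR-194, and ranked 18 in miR-122, with 17.5 RPM. Replicate 5 of day 180, low in miR-122, was ordinary in the others, with rank 6 in miR-192-5p, 9 in miR-194 and 6 in miR-215-5p.

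Erythroid miRNAs, which mark red cells and so blood in the tissue, were set beside the members in each library. The list of miR-451 and miR-144 summed to 90.5 to 1552 RPM at day 1 and 149 to 290 RPM at day 60. The sums were 236 to 1338 RPM at day 120 and 182 to 349 RPM at day 180. Of the list's 3 tested miRNA arms 0 were called in any of the 6 pairs, in which limma called at most 3.86% of all miRNAs. Nearly all of the sum was miR-451-5p, with a mean of 505 RPM on day 1. The arms of miR-144 averaged 8.96 RPM (5p) and 1.36 RPM (3p) at that age. The summed erythroid level followed miR-194 with a Pearson r of 0.691 (permutation p = 0.00063, adjusted 0.00189) and a Spearman rho of 0.690 (permutation p = 0.00134, adjusted 0.00402). It was 0.708 with the means of the ages removed (permutation p = 0.00095, adjusted 0.0057), and 0.596 without replicate 3 of day 1 and replicate 2 of day 120. For miR-192-5p r was 0.479 (permutation p = 0.0319, adjusted 0.0637) with a rho of 0.595 (permutation p = 0.00706, adjusted 0.0141). After removal of the means of the ages r was 0.515 (permutation p = 0.0852, adjusted 0.17), and it was 0.485 without the same 2 libraries. For miR-215-5p r was 0.231 (permutation p = 0.328, adjusted 0.46) and rho 0.221 (permutation p = 0.349, adjusted 0.419). Its r was 0.226 with the means of the ages removed and 0.208 without these 2 libraries. The 5 miRNAs most like miR-194 had a higher rho with it than this sum, 0.863 to 0.925. The part of blood in these levels was not tested. Most levels of miR-122 lay in a narrow band, with others far above or below it, and its relation to the erythroid sum was not tested. In replicate 4 of day 60, where miR-122 was highest, the erythroid sum was 149 RPM, rank 19 of 20.

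The list of other miRNAs known from liver held miR-193b, miR-365, miR-148a, miR-22, miR-483 and miR-455, with 10 tested arms. Of these, 0 were called in any of the 6 pairs. Over all miRNAs limma called at most 3.86% in a pair, so 0 of 10 lies near the general share. In day 60 against day 1 the median log2 fold change of the list was -0.09, against -0.04 over all miRNAs, with 5 of 10 above 0 (193 of 414 over all miRNAs). In day 120 against day 1 the median was 0.26, against -0.12 over all miRNAs, with 6 of 10 above 0 (181 of 414). In day 120 against day 60, where the value of miR-122 was -1.24, the median of the list was 0.40, against 0.03 over all miRNAs. There 10 of 10 lay above 0 (217 of 414), none of them called, and both arms of some miRNAs are counted. The medians of the other 3 pairs lay between -0.32 and 0.03. miR-148a-3p, abundant in many tissues, led the list, at 26222 ± 14129 RPM on day 60 and 31491 ± 34480 RPM on day 1 (SD, n = 5 each). On the log scale of the test its fold change had the other sign, 0.33 (limma adjusted p = 0.783). miR-193b-3p averaged 7.85 ± 3.84 RPM on day 60 and 147 ± 237 RPM on day 1 (SD, n = 5 each), the opposite order to miR-122, and did not pass (limma adjusted p = 0.0727). In replicate 4 of day 60 the list summed to 30644 RPM, rank 11 of 20. Of that sum 30163 RPM was miR-148a-3p, so the rank says little of the rest of the list. miR-885 and miR-802 were not analysed here.

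The list of epithelium, gut and pancreas miRNAs had 6 tested members, miR-200a, miR-200b, miR-200c, miR-429, miR-216b and miR-217-5p. It had 0 calls in any of the 6 pairs, in which limma called at most 3.86% of all miRNAs. The median log2 fold change of the list was 0.15 for day 60 against day 1, with 4 of 6 above 0 (193 of 414 over all miRNAs). It was -0.60 for day 180 against day 1, with 2 of 6 above 0 (155 of 414). In miR-200b, an epithelial miRNA, the mean was 75.4 ± 23.4 RPM on day 180 and 237 ± 311 RPM on day 1 (SD, n = 5 each). The pancreatic miR-217-5p averaged 29.6 ± 32.2 RPM on day 60 and 16.2 ± 5.22 RPM on day 1. Replicate 4 of day 60 ranked 3 of 20 in the summed level of this list, at 375 RPM, of which 267 RPM was miR-200b. Of the remaining marker lists, leukocytes and platelets (3 tested), neural tissue (8), choroid plexus (3) and muscle (5) had 0 calls in the 6 pairs. With so few tested and at most 3.86% of all miRNAs called, these counts lie near the general share. In replicate 4 of day 60 these lists ranked 8, 18, 3 and 6 of 20 by summed level. Each sum was mainly 1 miRNA there, so the ranks say little of the other markers. These were miR-150 (310 of 313 RPM), miR-9-5p (84885 of 111591 RPM), miR-204-5p (7643 of 7726 RPM) and miR-1 (1852 of 2169 RPM).

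The miRNAs whose pattern over the 20 libraries was most like that of each member were ranked by Spearman rho among 356 known miRNAs. For miR-122 these were let-7c-3p (rho 0.734), let-7c-5p (0.728), let-7a-5p (0.713) and let-7d-5p (0.705), 4 arms of the let-7 family that accumulates with differentiation, then miR-2411-3p (0.656). With the means of the ages removed, their Pearson r with miR-122 was 0.266, 0.311, 0.279, 0.351 and 0.448, so the likeness was weaker within an age. Since most levels of miR-122 lie in a narrow band, with others far above or below it, its rho over all 20 is a description only. With the other tested members its rho was -0.068 (miR-192-5p), -0.174 (miR-194) and 0.111 (miR-215-5p). In replicate 5 of day 180 let-7d-5p was at 463 RPM, against 1131 RPM in the mean of that age. In replicate 4 of day 60 let-7c-3p was at 25.8 RPM and the day-60 mean 27.6 RPM, while miR-122 was at 2540 RPM in that library. There let-7c-5p, let-7a-5p and let-7d-5p lay slightly above their day-60 means, and miR-2411-3p was at 64.3 RPM against a mean of 39.8 RPM.

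The miRNAs most like miR-192-5p were miR-374a-3p (rho 0.811), miR-542-3p (0.786), miR-340-5p (0.758), miR-126-3p of endothelium (0.755) and miR-148b-5p (0.747), with r between 0.744 and 0.853 once the means of the ages were removed. miR-194 was followed most closely by miR-106b-5p (rho 0.925), miR-140-5p (0.886), miR-186-5p (0.874), miR-30b-5p (0.863) and miR-126-5p (0.863). For miR-215-5p the highest values were let-7f-3p (rho 0.484), miR-10b-5p (0.456), miR-146a (0.445), miR-10a-5p (0.435) and miR-101-3p (0.432), all lower than for the other members. These rankings share libraries and depth and carry no test.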

How the data were processed

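The authors deposited 1 table of RPM values (named TPM in its header) for 683 miRNAs, 407 with a known name, in 20 libraries. Trizol extraction and a NEBNext small RNA library kit are named in the labels' protocols. Bowtie is named in the submitters' processing notes, without a version. Not given in the sources used here: genome build, miRNA catalogue and counter. Column sums fell short of the common total by at most 16.2 RPM, and 100% of values below 1000 reads were whole multiples of 1 step per column, within 0.1 read, so reads and depth were recovered. Floors of 3 reads cover counting error only. No 2 libraries of an age agreed within sampling noise (smallest chi-square per degree of freedom 357).

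The trended eBayes test of limma 3.58.1 in R 4.3.3 was run on log2(RPM + 1), with 4 age means, for the 414 miRNAs at 1 RPM or more in at least 5 libraries. Its intervals use 16 residual and 9.51 prior degrees of freedom. A fold change on this scale understates changes of low miRNAs. On recovered reads edgeR (4.0.16, quasi-likelihood, TMM) called 57, 43 and 22 miRNAs for days 60, 120 and 180 against day 1, and DESeq2 (1.42.0) 86, 74 and 61; limma called 16, 14 and 14. Correlations used 100000 permutations. Other alternatives were the pseudocount, no filter, median-of-ratios scaling, a block for the replicate number, and each library left out in turn. The fits were also run on simulated reads, with the outcome not reported here. Named miRNAs are the members, the marker lists and the 5 miRNAs most like each member. The members and lists were chosen with earlier results of these data known. Sequences were not used here.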

Additional observations from a re-analysis of the deposited data

Results flagged for a closer look

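Within each age the highest and the lowest library of each member were compared with the rest by Dixon's ratio of the gap to the range at its 95% critical value. Of 20 sets of 5 libraries, 9 held a library beyond that value, where chance flags about 1 in 20 groups of normally distributed values. These ratios are on RPM, which is skewed, and 4 of the 20 sets are of miR-192-3p, with at most 7 reads. On log2(RPM + 1) the ratio stayed beyond the critical value in 2 of the 9, miR-122 in replicate 4 of day 60 and in replicate 5 of day 180. The members of a library share their source, so these are not independent. For miR-122 the libraries were replicate 1 of day 1, at 91.6 RPM with the next at 24.1 RPM, replicate 4 of day 60, at 2540 RPM with the next at 233 RPM, and replicate 5 of day 180, at 10.9 RPM with the next at 123 RPM. For miR-192-5p they were replicate 3 of day 1, at 1461 RPM with the next at 676 RPM, and replicate 5 of day 60, at 1257 RPM with the next at 666 RPM.

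Replicate 3 of day 1 also stood apart in miR-194, at 230 RPM with the next at 87.6 RPM, and in miR-192-3p, at 0.982 RPM, or 7 reads. In that library the erythroid sum was the highest of all 20, at 1552 RPM, and the neural sum was also the highest, at 331554 RPM. In miR-215-5p, replicate 4 of day 60 stood apart at 40.2 RPM with the next at 8.31 RPM, and replicate 2 of day 180 at 33.7 RPM with the next at 10.8 RPM.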

How the results depend on the processing

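For the 4 tested members, 175 values under alternatives that keep all libraries kept their direction and side of the threshold, and 2 lost a call, 4 gained one and 15 turned sign. With a library left out, 526 kept both, 15 lost a call, 3 gained one and 16 turned sign. The rise of miR-122 between day 1 and day 60 kept its call under all 7 alternatives that keep every library (log2 fold change 3.43 to 4.95). Its F test ended with a pseudocount of 5 (adjusted p = 0.058) or no filter (0.0761). miR-122 was also called for day 120 against day 1 with median-of-ratios scaling (2.60, adjusted p = 0.0495) and for day 180 against day 1 with DESeq2 (2.19, 0.0403), and miR-215-5p for day 60 against day 1 with DESeq2 (1.93, 0.0447). The cause was not tested.

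Signs turned, none of them called, with edgeR and DESeq2: miR-192-5p -0.059 and -0.079 and miR-194 -0.032 and -0.066 for day 60 against day 1; miR-215-5p -0.33 and -0.40 for day 120 against day 60, -0.29 and -0.34 for day 180 against day 60; and for day 180 against day 120 miR-122 0.11 and 0.12, miR-194 0.0071 and 0.039 (0.034 with median-of-ratios scaling) and miR-215-5p 0.042 and 0.065. The cause was not tested.

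Counts over all miRNAs depended on the test. For day 60 against day 1, 16 calls became 9 with no filter, 40 with median-of-ratios scaling, 57 with edgeR and 86 with DESeq2. For day 120 against day 1, 14 became 36, 43 and 74 with the last 3. For day 180 against day 1, 14 became 7 with a pseudocount of 0.1, 8 with no filter, 23, 22 and 61. The F test's 8 became 30, 39 and 90. The upward share of day-60 calls was 3 of 16, against 12 of 40 with median-of-ratios scaling.

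With 1 library left out, calls ran from 2 (without replicate 4 of day 60) to 43 (without replicate 4 of day 1) for day 60, 7 to 29 for day 120 and 5 to 31 for day 180 against day 1, and from 5 to 16 for the F test. Log2 fold changes of members that gained or lost a call or turned sign ran, for day 60 against day 1, from 2.97 to 4.34 (miR-122), -0.21 to 0.29 (miR-192-5p) and -0.23 to 0.36 (miR-194). For day 120 against day 1 miR-122 ran from 1.93 to 3.10. miR-215-5p ran from -0.40 to 0.64 for day 180 against day 60, and for day 180 against day 120 miR-122 ran from -0.67 to 0.22 and miR-194 from -0.34 to 0.0072. The F test of miR-122 ran from 0.0123 to 0.105. Leave-outs for the log2 ratio of miR-122 to miR-192-5p were added after seeing the data; its difference ran from -0.92 to 0.08 for day 180 against day 120.

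The replicate numbers are not said to pair animals of different ages. Of 30 same-numbered pairs 11 had deviations correlated above 0.1 (median 0.069), and 4 of 20 libraries correlated best with their own number. With the number as a block, miR-122 was called for day 120 against day 1 (2.54, adjusted p = 0.0345), and calls for days 60, 120 and 180 against day 1 were 21, 18 and 14.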

Other observations

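A further count was made after the values were seen. Of the 15 libraries of days 60, 120 and 180, 12 held miR-122 between 100 and 150 RPM, and 3 lay outside: replicates 3 and 4 of day 60 and replicate 5 of day 180. Of the 5 day-1 libraries 0 lay in that window. The window was chosen on miR-122, and no such count was made for the other members. Transfer of reads between libraries was not tested.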
